A study of Mus musculus with 6 samples.

Results

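The transcripts Pip, Dcpp1, Dcpp2, Dcpp3, Bpifa2, Prh1, Smr3a, Prpmp5, Amy1 and Klk1, which encode secreted products of exocrine glands, were followed through 6 mouse mammary tumour libraries. They are 10 of the 55487 gene rows of the deposited tables, taken by exact symbol. They were chosen by their counts per library in these same data, where single libraries were high, so their levels are a description and support no test. The tumours came from MMTV-PyMT mice, which carry the polyoma virus middle T antigen under the mouse mammary tumour virus promoter, a promoter active in mammary epithelium and also known for activity in salivary gland. There were 3 libraries from mice given DMHCA, which activates the liver X receptors (LXR, sterol-sensing nuclear receptors), by mouth in gel cups from 6 weeks of age, and 3 from mice given vehicle. Strain and age at collection are not stated, nor whether each library is a different mouse, so any p-value measures the spread between these libraries, which may be technical. The titles carry 1 unexplained code per group, which cannot be told apart from treatment.

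Exocrine glands pour their products through ducts onto a surface. Acinar cells of salivary, lacrimal and related glands make few transcripts in very large amounts, most of them for small secreted proteins that lubricate, digest starch, bind dietary or microbial molecules or carry odorants. The mammary gland is itself an exocrine gland, and it shares with the others much of the machinery for regulated secretion, whereas the secreted products differ from gland to gland. Many of the genes belong to tandem families that multiplied in rodents, and neighbouring copies can be nearly identical.

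The libraries summed to between 36577451 and 42595799 expected counts, so that 3 counts, the upper limit that a count of 0 allows, correspond to between 0.0704 and 0.0820 CPM (counts scaled to the plain library total). Intervals and limits of this kind cover counting error only. All 20 mammary luminal genes on a marker list were present at 1 CPM or more in some library, and their summed level ran from 15291 to 24128 CPM. Krt8, a luminal keratin, lay between 957 and 1514 CPM and Csn3, kappa casein, between 8634 and 16381 CPM, so markers of the labelled tissue were present in every library. Vehicle replicate 2 had 166 CPM of the 7SK RNA Rn7sk, against 2.89 to 5.16 in the others, a gene named after its values were seen.

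Summed over the 10 transcripts, agonist replicate 2 had 1336 CPM and no other library had more than 85.5. The sums were 21.4, 1336 and 85.5 CPM in agonist replicates 1 to 3 and 11.6, 33.9 and 12.4 CPM in vehicle replicates 1 to 3. Agonist replicate 2 thus held 0.134% of its counts in these genes, and vehicle replicate 1 held 0.00116%. Of the 10 genes, 7 were highest in agonist replicate 2, and 3 (Prpmp5, Amy1 and Klk1) were highest in agonist replicate 1. In 5 of the 7 (Pip, Dcpp1, Dcpp2, Bpifa2 and Prh1) agonist replicate 2 was at least 3 times every other library, a height that 0.382% of the 15687 genes with 1 CPM in some library reached in that library. None of the 3 genes highest in agonist replicate 1 stood out by that much, as 0.249% of genes did. The share of all genes at such a height was 0.236% in agonist replicate 3 and 0.701%, 0.44% and 0.376% in vehicle replicates 1 to 3, where none of the 10 transcripts was highest.

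**Figure D1:**
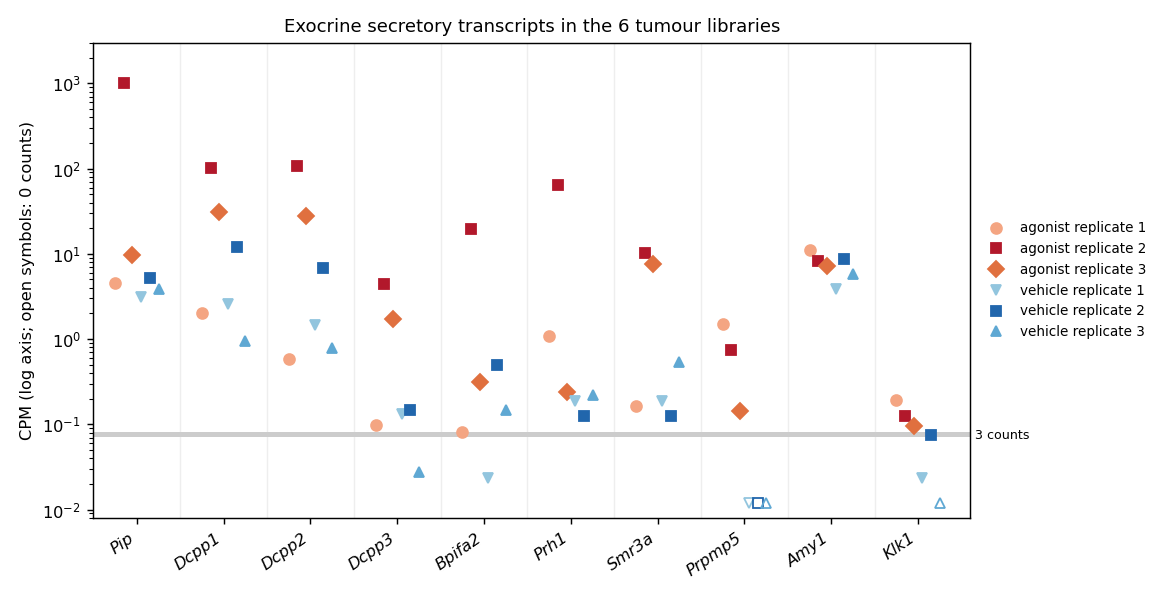
CPM of each of the 10 transcripts in each library, on a log axis, with agonist libraries in red shades and vehicle libraries in blue shades. Open symbols mark 0 counts and the grey band marks the level of 3 counts. Agonist replicate 2 stands highest for the first 7 genes, from 1021 CPM for Pip to 4.37 for Dcpp3, whereas the 6 libraries of Amy1 lie together between 3.85 and 11.1.

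Pip encodes prolactin-induced protein, a small secreted glycoprotein of salivary, lacrimal and other exocrine glands. It had 4.59, 1021 and 9.80 CPM in agonist replicates 1 to 3 and 3.12, 5.15 and 3.86 CPM in vehicle replicates 1 to 3. A single agonist library was therefore far above a group of 5 libraries that lay close together, and the groups overlapped. Agonist replicate 2 held 97.5% of the sum over the 6 libraries and was 104 times the next library. On the length-corrected TPM scale Pip ranked 27 among all genes of that library, at 3771 TPM, and 3873 or lower in the other 5. The mean of log2(CPM + 0.1) was 3.16 higher with agonist and 0.75 higher without agonist replicate 2. Pip lies on chromosome 6 (41847535 to 41852065, plus strand, GENCODE M21 on GRCm38).

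Bpifa2 encodes parotid secretory protein, a member of the BPI fold family of secreted lipid-binding proteins, and Prh1 encodes a salivary proline-rich protein. Bpifa2 had 0.0820, 19.4 and 0.314 CPM with agonist and 0.0235, 0.50 and 0.147 with vehicle. Prh1 had 1.09, 64.1 and 0.241 CPM with agonist and 0.188, 0.125 and 0.221 with vehicle. For both genes nearly all signal was in agonist replicate 2, with 94.8% of the 6-library sum of Bpifa2 and 97.2% of that of Prh1. Prh1 had its next highest level in agonist replicate 1, where 40 counts stood against 5 to 10 in the libraries other than agonist replicate 2. Without agonist replicate 2 the difference in mean log2(CPM + 0.1) fell from 2.11 to 0.0573 for Bpifa2 and from 3.43 to 1.21 for Prh1. The Prh1 groups did not overlap, but by a margin of 10 counts in agonist replicate 3 over 9 in vehicle replicate 3. Bpifa2 lies on chromosome 2 (154008265 to 154016079, plus strand) and Prh1 on chromosome 6 (132569809 to 132572941, plus strand).

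The 3 Dcpp genes, named for the demilune cells of the sublingual gland and the parotid gland in which their secreted proteins were described, had a graded pattern over the libraries. Dcpp1 had 2.05, 102 and 30.7 CPM with agonist and 2.56, 12.1 and 0.959 with vehicle. Dcpp2 had 0.588, 106 and 27.8 CPM with agonist and 1.46, 6.89 and 0.783 with vehicle. From the highest down, agonist replicate 2, agonist replicate 3 and vehicle replicate 2 led both genes, and agonist replicate 1 lay within the vehicle range or below it. Dcpp3 was far lower, at 0.0971, 4.37 and 1.71 CPM with agonist and 0.131, 0.147 and 0.0278 with vehicle, and its vehicle replicate 2 value, at 5.89 counts, did not stand out. Unlike Pip, the genes had a share of 67.4% to 73.9% in agonist replicate 2, and agonist replicate 3 held 19.3% to 26.4%. Without agonist replicate 2 the difference in mean log2(CPM + 0.1) went from 2.54 to 1.32 for Dcpp1, from 2.58 to 1.04 for Dcpp2 and from 2.59 to 1.62 for Dcpp3.

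The division of reads among the 3 copies is uncertain, since they share long identical stretches. Of the 50-base words in their GENCODE M21 transcripts, 46.5% for Dcpp1, 44.2% for Dcpp2 and 45.8% for Dcpp3 also occur in another Dcpp gene. The coding sequences, of 513, 513 and 510 bases, were 93.8% identical between Dcpp1 and Dcpp2, 93.2% between Dcpp1 and Dcpp3 and 95.3% between Dcpp2 and Dcpp3. They are printed below over the 120 bases that hold 26 of the 43 positions at which the 3 differ, to show where a read can tell the copies apart. Capitals mark the differing positions, and the stretch starts at coding base 275 of Dcpp1 and Dcpp2 and at base 272 of Dcpp3.
Dcpp1: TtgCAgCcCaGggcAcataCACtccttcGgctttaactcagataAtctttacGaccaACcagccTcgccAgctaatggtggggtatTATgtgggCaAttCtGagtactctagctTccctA
Dcpp2: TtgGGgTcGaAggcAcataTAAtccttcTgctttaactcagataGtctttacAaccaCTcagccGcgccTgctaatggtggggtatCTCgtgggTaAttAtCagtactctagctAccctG
Dcpp3: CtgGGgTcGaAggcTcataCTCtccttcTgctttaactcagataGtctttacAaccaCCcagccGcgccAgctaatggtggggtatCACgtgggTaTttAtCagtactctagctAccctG

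The summed Dcpp signal does not depend on that division among the copies. It was 2.73, 213 and 60.2 CPM in agonist replicates 1 to 3 and 4.16, 19.2 and 1.77 CPM in vehicle replicates 1 to 3, or 100, 8559, 2496, 177, 767 and 72 counts. Agonist replicates 2 and 3 were thus above all vehicle libraries, and agonist replicate 1 was below 2 of the 3 vehicle libraries. Dcpp1 took 48.0% of the sum in agonist replicate 2 and 74.9% in agonist replicate 1, Dcpp2 took 21.5% to 49.9%, and Dcpp3 took 0.768% to 3.55%. The genes lie next to each other on chromosome 17, Dcpp1 at 23880876 to 23882853 and Dcpp3 at 23917458 to 23919441. The annotated span of Dcpp2 (23880880 to 23900788) also covers most of Dcpp1, all on the plus strand.

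Smr3a, which encodes a salivary protein first described as regulated by androgen in the submaxillary gland, was high in 2 agonist libraries rather than 1. It had 0.164, 10.2 and 7.51 CPM with agonist and 0.188, 0.125 and 0.541 with vehicle. Agonist replicates 2 and 3 held 54.4% and 40.2% of its 6-library sum, at 408 and 311 counts, while agonist replicate 1, at 6 counts, lay within the vehicle range of 5 to 22 counts. The difference in mean log2(CPM + 0.1) was 2.99, and 2.03 without agonist replicate 2. Its position is chromosome 5, 88002549 to 88008534, plus strand, and 41.8% of its 50-base words also occur in 1 other annotated gene, the model Gm28434.

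Prpmp5, another proline-rich protein gene, was the only one of the 10 with 0 counts in all 3 vehicle libraries. It had 55, 30 and 6 counts in agonist replicates 1 to 3, or 1.5, 0.747 and 0.145 CPM, so the order of the agonist libraries differed from that of Prh1, which lies on the same chromosome. Against the level of 3 counts in the shallowest vehicle library, these are at least 20.0-fold, 9.95-fold and 1.93-fold higher. The gene lies at 132311590 to 132314757 on the minus strand of chromosome 6, and 29.4% of its 50-base words are shared with 5 other genes, among them the proline-rich protein gene Prb1.

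Amy1, the amylase gene of salivary gland and liver, did not share the pattern of single libraries. It had 11.1, 8.18 and 7.18 CPM with agonist and 3.85, 8.75 and 5.85 with vehicle, and no library held more than 24.7% of the sum. The group means were 8.81 ± 2.03 and 6.15 ± 2.46 CPM (SD, n = 3), and the groups overlapped. In vehicle replicate 2 the deposited mean length of its transcripts was 1462 bases, against 1673 to 1715 in the others. Of the 50-base words of Amy1, 33.3% occur in other genes, among them the pancreatic amylases and Rnpc3, whose annotation overlaps Amy1 on chromosome 3 (113555710 to 113606699, minus strand).

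Klk1, tissue kallikrein, a serine protease of salivary duct, kidney and pancreas that releases kinins, was near the limit of detection. Its counts were 7, 5 and 4 with agonist and 1, 3 and 0 with vehicle, at most 0.191 CPM. All 3 agonist libraries were above all vehicle libraries, but by 1 count between agonist replicate 3 and vehicle replicate 2. It lies on chromosome 7 (44225360 to 44229618, plus strand), and 24.0% of its 50-base words are shared with 13 other genes.

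**Figure D2:**
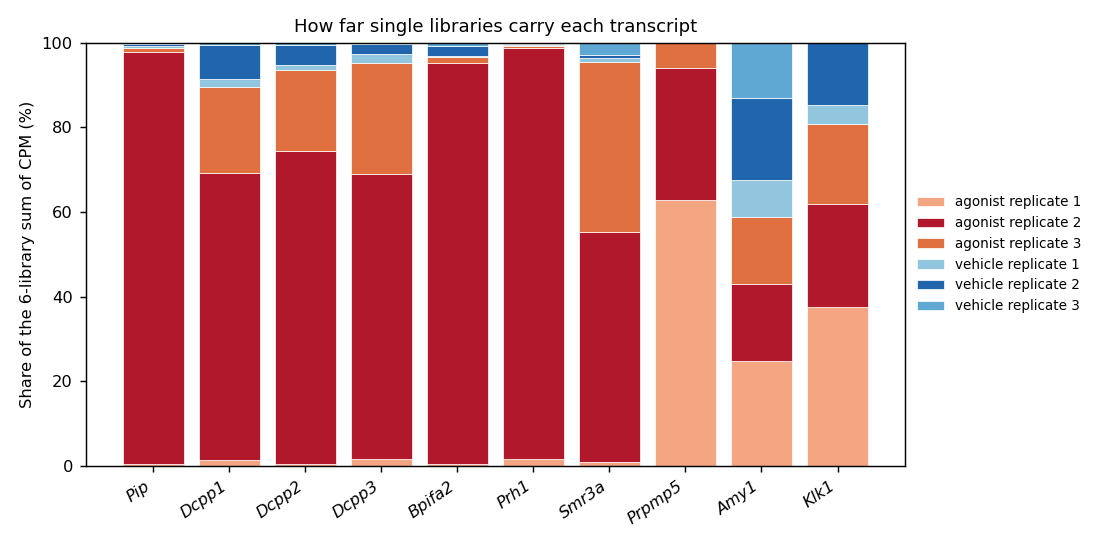
Share of the 6-library sum of CPM held by each library, as stacked bars to 100% for each of the 10 transcripts. Agonist replicate 2 fills 97.5% of Pip, 97.2% of Prh1 and 94.8% of Bpifa2, shares Smr3a with agonist replicate 3 (54.4% and 40.2%), and holds 18.2% of Amy1.

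EdgeR, fitted to all genes with enough counts, called none of these transcripts between agonist and vehicle. Of the 10 transcripts, 6 passed its low-count filter (Pip, Dcpp1, Dcpp2, Bpifa2, Smr3a and Amy1) and 0 had a Benjamini-Hochberg adjusted p under 0.05, as did 0.0% of the 17396 genes tested. An unadjusted p under 0.05 was reached by 538 genes, and by 2442 without vehicle replicate 2 and 315 without agonist replicate 3. DESeq2, run without that filter, gave a p-value for 7 of the 10 and called 1, Prpmp5, where it called 0.0172% of 29069 genes. The other 3 had counts but no p-value, which DESeq2 withholds where it flags a count as an outlier. Limma-voom called 0 genes. The groups did not overlap for 3 of the 10 (Prh1, Prpmp5 and Klk1), all higher with agonist and none past the edgeR filter, beside 4.67% of the 29110 genes with at least 1 count (2.26% were lower without overlap). That background leans on the scaling, since of the genes tested 1032 were higher (5.93%) and 411 lower (2.36%) without overlap by plain library totals, and 611 and 668 by TMM-adjusted totals. As the contrast helped to choose the transcripts, nothing is read from these counts.

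For Pip and Prh1, levels in most of the remaining libraries were a small and even fraction of the level in agonist replicate 2. Pip was at 0.306% to 0.505% of it in agonist replicate 1 and the vehicle libraries, and 0.960% in agonist replicate 3. Prh1 was at 0.195% to 0.377% in 4 of the other libraries and at 1.71% in agonist replicate 1. Bpifa2 ranged from 0.121% in vehicle replicate 1 to 2.58% in vehicle replicate 2. The Dcpp genes and Smr3a did not show such an even level: they reached 26.1% to 73.9% in agonist replicate 3, and Dcpp1 reached 11.9% in vehicle replicate 2.

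A similar fraction appeared in genes outside the 10. Mucl2, a mucin-like salivary protein gene, had 764 CPM in agonist replicate 2 and 0.227% to 0.324% of that in each of the other 5 libraries, and Mup5, of the major urinary proteins that bind odorants, had 781 CPM and 0.255% to 0.426%. Over the 10 genes ranked below by their height in that library, the median fraction in the other libraries ran from 0.184% to 0.973%. These genes were ranked by a low level elsewhere, so the low fraction is not a finding. The narrow range of Mucl2 and Mup5 is given as a description. It was not shared by all of the ranked genes, since Scgb1b27 ran from 0.61% to 2.73% and Mup4 from 0.147% to 0.755%. Whether low levels in the other libraries came from their own tissue or from reads of agonist replicate 2 assigned to them was not tested.

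**Figure D3:**
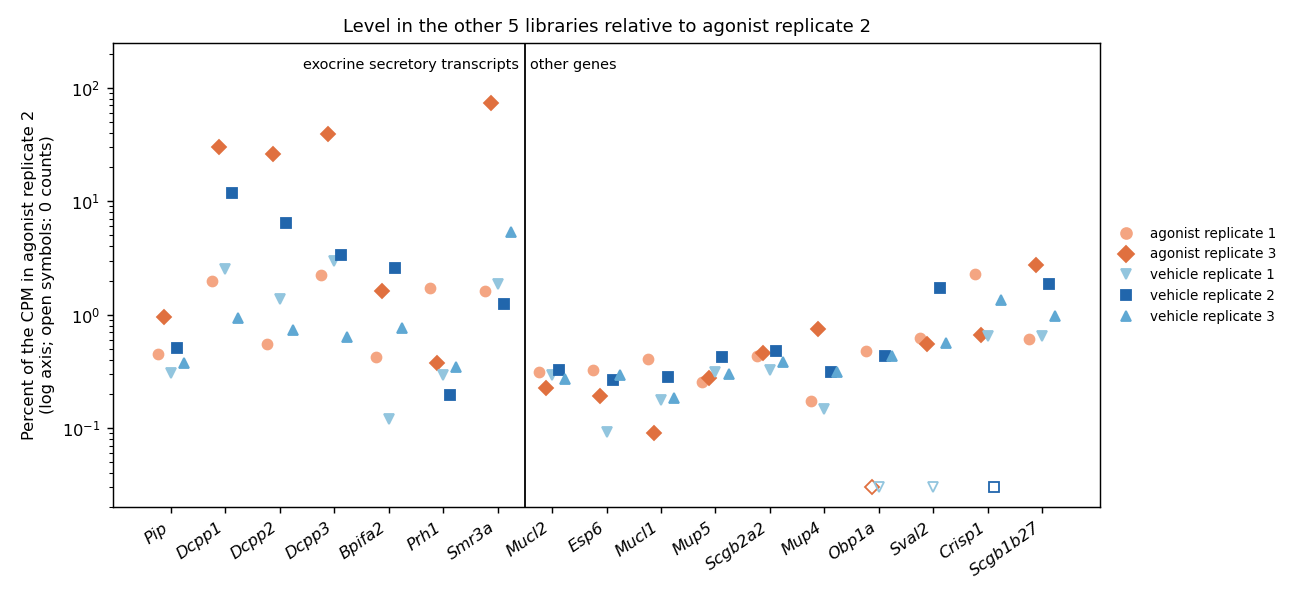
Level of each gene in the other 5 libraries as a percent of its CPM in agonist replicate 2, on a log axis, for the 7 exocrine transcripts highest there and 10 other genes. Open symbols mark 0 counts. Mucl2, Mup5 and Scgb2a2 lie in narrow bands between 0.227% and 0.480%, while the Dcpp genes and Smr3a reach 26.1% to 73.9% in agonist replicate 3.

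The genes that stood out most in agonist replicate 2 again included many secretory products of exocrine glands. Among 14261 genes with at least 1 CPM there, the largest ratios to the highest other library, or to the level of 3 counts where that library was lower, belonged to Mucl2 (309 times), Esp6 (307), Mucl1 (244), Mup5 (235), Scgb2a2 (208), Mup4 (132), Obp1a, Sval2, Crisp1 and Scgb1b27 (36.6). Obp1a, Sval2 and Crisp1 had at most 3 counts in any other library, so no ratio is given for them. Esp6 encodes an exocrine gland secreted peptide of a family with pheromone members, and it had 75.6 CPM in agonist replicate 2 against at most 0.246 elsewhere. Scgb1b27 and Scgb2a2 encode secretoglobins, small secreted proteins, at 892 and 57.3 CPM. Mup4 and Obp1a encode carriers of small hydrophobic molecules, at 32.0 and 5.73 CPM. In each of the 10 no other library exceeded 24.4 CPM. Pax6, a transcription factor of eye and lacrimal gland development, and Ccl28, a chemokine of mucosal and glandular epithelium that attracts IgA plasma cells, were named after their values were seen. Pax6 had 23.3 CPM there and 0.123 to 0.80 elsewhere, and Ccl28 had 62.2 CPM and 0.657 to 5.11.

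**Figure D4:**
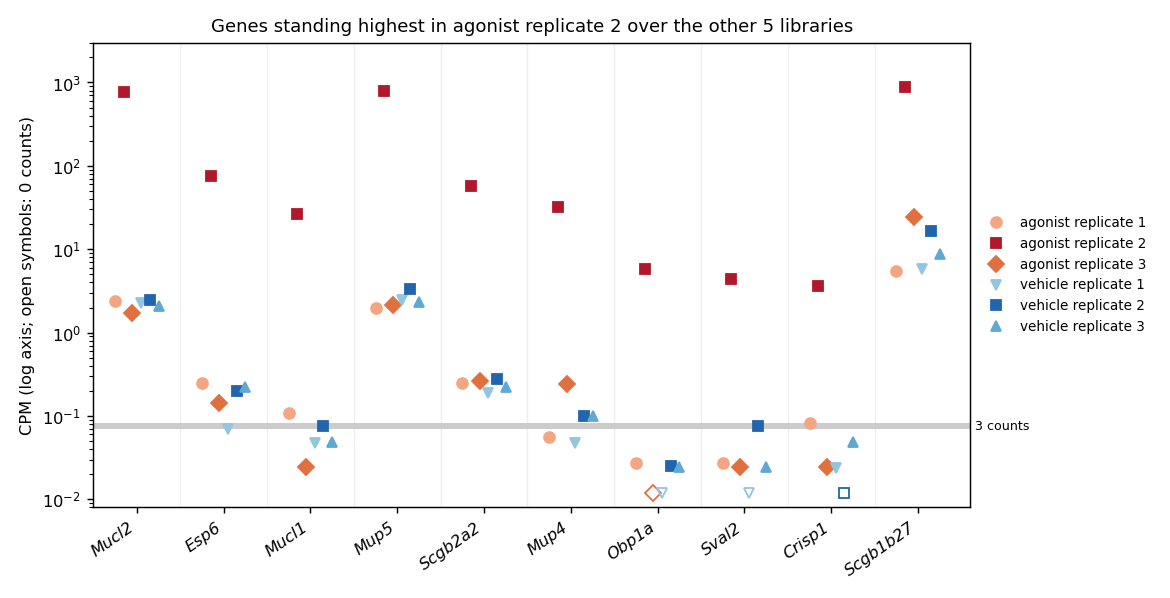
CPM by library, on a log axis, of the 10 genes outside the exocrine transcripts with the largest ratio of agonist replicate 2 to the highest other library. Open symbols mark 0 counts and the grey band the level of 3 counts. Mucl2, Mup5 and Scgb1b27 reach 764, 781 and 892 CPM in agonist replicate 2, and the other libraries stay at or below 24.4 CPM.

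Agonist replicate 1, the highest library for Prpmp5, Amy1 and Klk1, was led by genes of other kinds. By the same ratio the first places went to Dmrt3, a developmental transcription factor, at 6.04 CPM against at most 0.0470, and Lin28b, an RNA-binding protein of early development, at 2.19 against at most 0.0737. Htr7, a serotonin receptor (7.94 times), and Xlr3a, an X-linked gene of a lymphocyte-regulated family (6.08 times), were also among the first 10. None of the first 10 was on a gland list.

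By the profile of the summed transcripts over all 6 libraries, the closest of 15678 genes were mostly widely expressed ones with small differences, apart from the gene model Gm5886. Pearson's correlation of log2(CPM + 0.1) with the log2 sum was 0.99 for Nop14, a ribosome assembly factor, Lap3, a peptidase, and Ttll7, a tubulin-modifying enzyme, and it was 0.96 for each of these without agonist replicate 2. Nop14 was 1.34 times and Lap3 1.28 times the median of the other 5 libraries in agonist replicate 2. The correlation over 6 libraries is a description, and all points share the same 6 totals.

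Lacrimal and nasal gland genes were on a list written with earlier results of these data known, so its counts are a description. Of 14 lacrimal and nasal gland genes found, 9 were highest in agonist replicate 2, among them Obp1b and Esp4 at only 2 and 3 counts. In every library 6 of the 14 were at or under 3 counts, and 4 (Lcn3, Lcn4, Esp1 and Scgb1b24) were at 0. Of the 6 with 1 CPM somewhere, 4 (Scgb1b27, Esp6, Mup4 and Obp1a) were at least 3 times every other library in agonist replicate 2. The summed level of that list was 3149 CPM in agonist replicate 2 and 289 to 1320 elsewhere. Scgb2b27, the secretoglobin next to Scgb1b27, was high more widely, with 170, 1331 and 169 CPM with agonist and 42.6, 202 and 491 with vehicle. Ltf, lactotransferrin, which is also on the luminal list, had 585, 811 and 835 CPM with agonist and 240, 1101 and 489 with vehicle. Of the list 3 genes were tested and 0 called by edgeR, with a median log2 fold change of 1.12 against -0.0049 over all genes tested. The list median was 0.15 without agonist replicate 2, and 0.62, 3.21 and 2.11 without vehicle replicates 1, 2 and 3. It was 3.97 without the low-count filter. Each fit filtered genes anew, so the median can cover other genes than these 3. Without vehicle replicate 2 the 3 themselves were at 5.39 (Scgb1b27), 1.03 (Scgb2b27) and 1.01 (Ltf). Scgb1b27 had a log2 fold change of 4.81 (SE 1.86, edgeR adjusted p = 0.99), and of 0.46 without agonist replicate 2.

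Other salivary acinar genes, of which those at 3 times every other library or at 0 were named after their values were seen, had no single pattern. Of 20 found, 7 were highest in agonist replicate 2 and 2 of the 10 with 1 CPM somewhere were 3 times every other library there, the protease inhibitor family gene Wfdc2 (21.1 CPM against at most 4.59) and the peroxidase Lpo (6.15 against at most 1.91). Prol1, a salivary mucin-type gene, was high in 1 library of each group, with 3.91, 208 and 4.71 CPM with agonist and 4.48, 3.90 and 279 with vehicle. Car6, the secreted carbonic anhydrase of saliva and milk, had 141, 332 and 159 CPM with agonist and 53.8, 140 and 213 with vehicle. Wfdc18 and the cobalamin carrier Tcn2 were abundant in all libraries, at 323 to 1091 and 275 to 504 CPM. EdgeR called 0 of the 10 tested, with a median log2 fold change of 0.36. It was -0.0035 over the list genes that passed the filter without agonist replicate 2. Smr2 (3.74 CPM) and Bpifb5 (11.2 CPM), relatives of Smr3a and Bpifa2 named after their values were seen, were highest in agonist replicate 3. The mucin Muc19 and the secretory genes Bpifb2, Bpifa1 and Scgb1a1 had 0 counts in every library.

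Salivary duct genes were low everywhere. Of 18 found, 4 reached 1 CPM in some library, 7 were at or under 3 counts in every library, and 3 (Crisp3, Klk1b4 and Klk1b16) were at 0. Egf, the growth factor stored in the granular ducts of the submandibular gland, had 7.96 to 16.7 CPM, highest in vehicle replicate 3. The kallikreins Klk1b26, Klk1b11 and Klk1b1 reached 2.19, 1.92 and 1.25 CPM, highest in agonist replicate 2, and their near-identical copies make the split among them uncertain. EdgeR called 0 of the 5 tested (median log2 fold change 0.21). Of the 11 other kallikrein-related peptidase genes, led by Klk10 (4.3 to 44.1 CPM), Klk8 (0.473 to 8.5), Klk14 (1.33 to 5.15) and Klk6 (0.376 to 2.22), 5 were tested and 0 called (median 0.69). Without agonist replicates 1, 2 and 3 the list median was 0.28, 0.0832 and 1.1, and without vehicle replicates 1 and 2 it was 0.34 and 0.36. Each of these fits filtered genes anew, so the genes behind the median can differ. Without agonist replicate 2 the 5 genes ran from -0.95 (Klk11) to 1.21 (Klk8), with Klk10 in the middle at 0.37.

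Genes of acinar identity and fluid secretion, such as channels and transcription factors, ranged widely in level, from the channel Kcnma1 at 0.258 to 0.99 CPM to Aqp5. The water channel Aqp5 had 550, 591 and 490 CPM with agonist and 1847, 450 and 910 with vehicle. Sox10, a transcription factor of glandular and luminal progenitor cells, had 226, 430 and 348 CPM with agonist and 828.4, 403 and 701 with vehicle. The potassium channel Kcnn4 (379 to 882 CPM) and the chloride channel Ano1 (257 to 555) were likewise present throughout. Of the 16 genes, all tested, 1 was highest in agonist replicate 2 and 11 in a vehicle library. EdgeR called 0, with a median log2 fold change of -0.30, or 0.0122 without vehicle replicate 3.

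**Figure D5:**
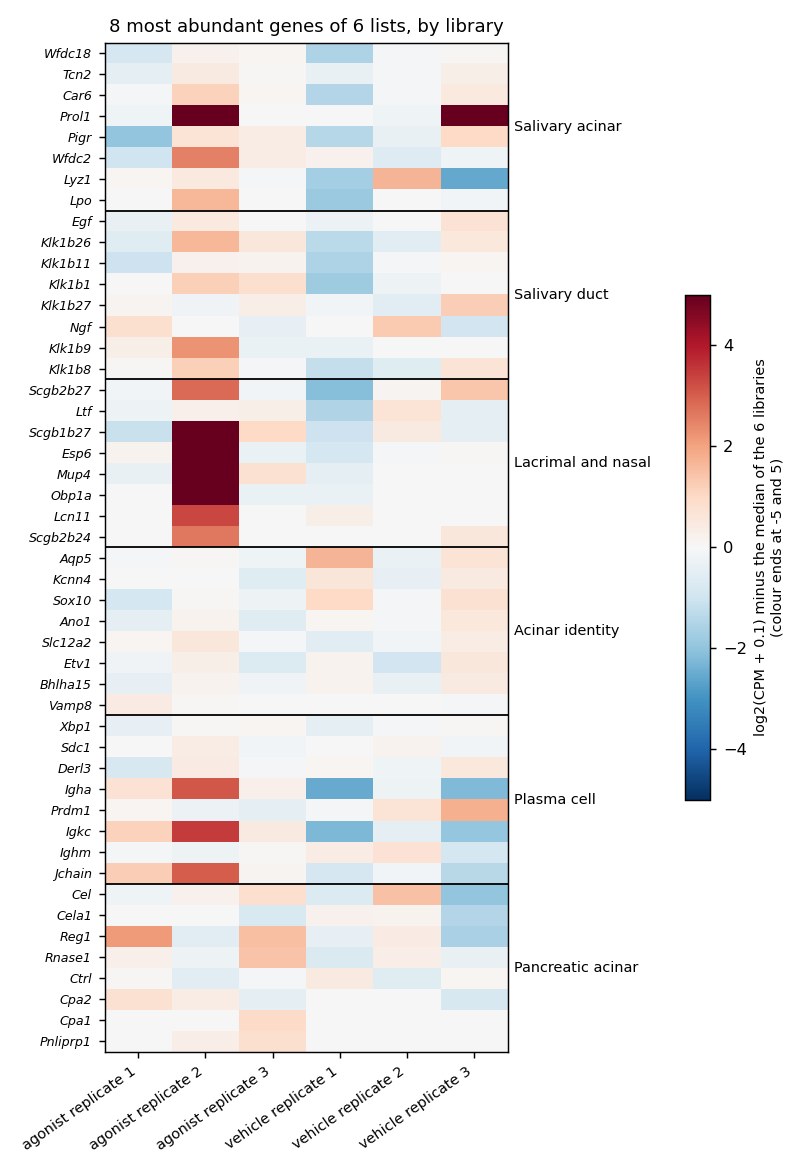
Deviation of log2(CPM + 0.1) from the median of the 6 libraries for the 8 most abundant genes of each of 6 lists (rows) in each library (columns). Colours end at -5 and 5. In agonist replicate 2 the lacrimal and nasal genes from Scgb1b27 to Obp1a and the salivary gene Prol1 are deep red, as is Prol1 in vehicle replicate 3, while the acinar identity and pancreatic rows stay pale there.

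Of the 12 plasma cell genes with 1 CPM somewhere, 4 (Igha, Igkc, Jchain and Ighg1) were at least 3 times every other library in agonist replicate 2, and others had another order. Igha, the IgA heavy chain, had 3.23, 17.2 and 2.32 CPM with agonist and 0.258, 1.60 and 0.344 with vehicle. Jchain, the joining chain of secreted IgA, had 1.70, 6.2 and 0.748 CPM with agonist and 0.329, 0.60 and 0.197 with vehicle, and Igkc, the kappa light chain, had 2.19, 11.5 and 1.3 against 0.117, 0.650 and 0.172. The groups did not overlap for these 3 of the 12 list genes tested, beside 5.93% of all genes tested that were higher without overlap by the same plain totals. Ighm, the IgM heavy chain, had 5.19, 4.46 and 5.5 CPM with agonist and 7.0, 8.83 and 2.88 with vehicle, highest in vehicle replicate 2. The plasma cell transcription factors Prdm1 (2.61 to 12.6 CPM) and Irf4 (0.541 to 2.35) were highest in vehicle replicates 3 and 2. The transcriptional coactivator Pou2af1 (1.15 to 2.51) was highest in vehicle replicate 1. Members outside the most abundant 4 were named after their values were seen. Xbp1 (910 to 1317 CPM), Sdc1 (51.3 to 73.8) and Derl3 (13.5 to 34.9), which other secretory cells also express, were highest in agonist replicate 3, agonist replicate 2 and vehicle replicate 3. Of the list's 19 genes 12 were tested, 8 with a positive and 4 with a negative log2 fold change, and 0 called by edgeR (median 0.08), while DESeq2 called 1, Igkc. In bulk tissue more cells of a type and more RNA per cell cannot be told apart.

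Pancreatic acinar genes were nearly absent, with 23 of 30 at or under 3 counts in every library and 14 at 0. The highest were Cel, a lipase also secreted in milk (2.31 to 26.2 CPM), Cela1 (0.91 to 3.1), Reg1 (0.0737 to 2.21) and Rnase1 (0.188 to 1.16), and 0 of 5 tested were called (median -0.01). Myoepithelial and basal genes, led by Itga6 (170 to 230 CPM), Acta2, Krt14 (24.7 to 142) and Krt5 (9.44 to 114), were highest in agonist replicate 3 in 11 of 13 cases, with a summed level of 934 CPM there and 466 in agonist replicate 2, and 0 were called (median 0.89, or 0.12 without agonist replicate 3 and 1.52 without vehicle replicate 2). Acta2, smooth muscle actin, had 164 CPM in agonist replicate 3, 52.1 and 28.7 in the other agonist libraries and 8.14 to 31.3 with vehicle. All 12 skeletal muscle genes, led by Myh4 (140 to 336 CPM), Atp2a1, Acta1 and Ckm, were highest in agonist replicate 1, with a sum of 1255 CPM against 688 to 1013 (0 called, median 0.25, range 0.0276 to 0.42 over single libraries left out, lowest without agonist replicate 1). Skin and appendage genes summed to 27.7 to 40.7 CPM, with Sbsn (16.9 to 25.2), Krt10, Tchh and Awat2 highest. Of that list 8 were tested and 0 called (median 0.24). The median ran from 0.0624 to 0.59 over single libraries left out, with genes filtered anew each time. B cell and lymph node genes summed to 0.983 to 3.01 CPM, with Ccr7, Cd79b and Cxcl13 among the highest (4 tested, 0 called, median 0.74, range 0.43 to 1.4 in the same way). The luminal list, led by Csn3, Krt8, Csn2 and Mfge8, gave 0 calls of 20 (median -0.19, range -0.32 to -0.0179). What part these markers have in the exocrine levels was not tested.

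Some neighbouring genes were also highest in agonist replicate 2. Within 250 kb of the 10 genes, a distance chosen after the values were seen, there were 102 other protein-coding genes, of which 37 had 1 CPM in some library. Of these, 4 were at least 3 times every other library in agonist replicate 2, where 0.382% of all 15687 genes with 1 CPM in some library were. They were Sval2, Bpifb3 (75269 bases from Bpifa2), A630073D07Rik (52170 bases from Prh1) and Odam (108375 bases from Smr3a). For all but Sval2, other genes lie in between. Sval2 lies 924 bases from Pip and had 4.41 CPM in agonist replicate 2 against at most 0.0750 elsewhere. Bpifb3 had 8.09 CPM and Odam, an ameloblast-associated secreted protein gene, 5.35 CPM. The casein gene Csn3, 69884 bases from Smr3a, was not set apart, at 1.09 times the next library, nor were the widely expressed neighbours of the Dcpp genes, such as Srrm2 (0.699 times the highest other library).

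The 7 genes highest in agonist replicate 2 are shown with the bases before their RefSeq start (GRCm38.p6, all on the plus strand), since promoters of genes that are high together can be compared. Each line runs from 80 to 6 bases before the start, with TATAA, the core of a TATA box, in capitals.
Pip, chr6:41847469-41847543: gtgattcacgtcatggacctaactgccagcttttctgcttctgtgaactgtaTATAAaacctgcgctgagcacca
Dcpp1, chr17:23880796-23880870: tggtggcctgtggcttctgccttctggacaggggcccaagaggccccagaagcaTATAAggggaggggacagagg
Dcpp2, chr17:23898642-23898716: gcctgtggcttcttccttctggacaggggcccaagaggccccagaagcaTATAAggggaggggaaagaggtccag
Dcpp3, chr17:23917378-23917452: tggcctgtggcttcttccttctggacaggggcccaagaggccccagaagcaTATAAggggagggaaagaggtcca
Bpifa2, chr2:154008196-154008270: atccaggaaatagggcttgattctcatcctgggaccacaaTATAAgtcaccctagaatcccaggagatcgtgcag
Prh1, chr6:132569762-132569836: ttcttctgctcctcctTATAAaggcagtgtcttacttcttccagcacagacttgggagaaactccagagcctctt
Smr3a, chr5:88002445-88002519: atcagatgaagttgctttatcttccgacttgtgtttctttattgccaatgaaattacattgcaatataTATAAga

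All 10 genes had an entry in the RefSeq promoter table, Amy1 with 2 starts, which gives 11 promoters. TATAA on the gene strand began within the last 50 bases before the start in 7 of the 11 (Pip, Prpmp5, Bpifa2, Smr3a and the 3 Dcpp genes), and in 4.93% of all 32851 promoters. The nearest in Prh1 lay 64 bases before the RefSeq start, and in Smr3a 12 bases before it. For both genes that start differs from the GENCODE start given above, so these distances, and whether Prh1 is counted, depend on the start used. The same holds for the distances in Pip, Prpmp5, Bpifa2 and Dcpp2, whose 2 starts also differ. The Dcpp2 line printed above begins at 23898642, far from its GENCODE start at 23880880. An exact direct repeat of AGGTCA with any 4 bases between, the idealized LXR response element, was sought on both strands over the 250 bases before the start. It was in 0 of the 11 and in 0.0152% of all promoters. So rare a string would hardly be met in 11 promoters, so the 0 says nothing about LXR sites. A single AGGTCA, on both strands, which the repeat contains, was in 2 of the 11 (Bpifa2 and Klk1) and in 14.0% of all. The E-box CATATG, on both strands, was in 0 of the 11 and in 3.46% of all, and the SOX core ACAAAG, on both strands, in 1 (Prpmp5) and 16.5%. The 250 bases before the starts of the Dcpp genes were 93.3% to 96.4% identical between copies. A match describes letters in this window, not a bound site.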

How the data were processed

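RNA of 6 mammary tumours was sequenced, 3 per group by the treatment label, with replicate numbers from the titles. The deposited tables hold RSEM expected counts (rounded to whole numbers for the tests, and between 10.1% and 10.5% of rows not whole), TPM, FPKM (not used) and mean transcript lengths, per the file headers. The submitters' processing notes name GRCm38, R 4.1, DESeq2 1.36.0, RSEM 1.3.1, STAR 2.7.9a, cutadapt 3.5 and FastQC 0.11.9. Of annotation release, strand setting and filters nothing is stated in the sources used here, so overlapping genes and near-identical copies are uncertain.

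CPM were computed on plain library totals, with a pseudocount of 0.1 before log2. The test was edgeR 4.0.16 (R 4.3.3) with TMM, filterByExpr defaults, robust quasi-likelihood fits and Benjamini-Hochberg adjustment at 0.05, tested on simulated data. DESeq2 1.42.0, limma 3.58.1 (voom), DESeq2 size factors, no low-count filter, a replicate block and leaving out each library were alternatives. Each fit with a library left out filtered genes anew, so its list medians can cover different genes. Positions are from GENCODE M21, which held 55141 of 55487 row identifiers, and promoters from RefSeq (GRCm38.p6).

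The 10 transcripts and 12 gene lists (205 genes, 202 found) were chosen with earlier results of these data known. Named genes were the 10 transcripts, the 4 most abundant of each list and any list gene called. Of the 10 genes most correlated with the summed transcripts, only the first 4 were named. The 10 highest over all other libraries were taken in each library that led at least 2 transcripts. Of the genes these rules name, predicted and unnamed gene models other than Gm5886 were left out. One gene that the rule names is not reported here. Any other gene was named after its values were seen.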

Additional observations from a re-analysis of the deposited data

How the results depend on the processing

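With 3 libraries a group and single libraries carrying the signal, the depth limits only Klk1, Prpmp5 and the low libraries of Bpifa2, Dcpp3, Prh1 and Smr3a. EdgeR called 0 genes, and 0 again with DESeq2 size factors, without the low-count filter, with the replicate block and without each library in turn (0 to 0), whereas limma-voom called 0 and DESeq2 called 5 genes, 1 of the 10 transcripts and 1 list gene. At an unadjusted p under 0.05 edgeR gave 538 genes, 847 without the filter, 315 without agonist replicate 3 and 2442 without vehicle replicate 2. The deviations of same-numbered libraries correlated at 0.17, 0.0377 and 0.0628, and those of differently numbered ones at -0.109 to 0.055. Agonist replicates 1 and 3 correlated best with the vehicle library of their own number, and agonist replicate 2 with vehicle replicate 3. These small values do not settle whether the replicate numbers mark a pairing.

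The difference in mean log2(CPM + 0.1), agonist minus vehicle, stayed positive for all 10 transcripts with TMM totals, TPM, a pseudocount of 1 and each library left out. With a pseudocount of 1 it was 0.77 for Prpmp5 and 0.14 for Klk1. Without single libraries it ran from 0.75 to 4.63 for Pip, 1.32 to 4.11 for Dcpp1, 1.04 to 4.68 for Dcpp2, 1.62 to 3.87 for Dcpp3, 0.0573 to 3.43 for Bpifa2, 1.21 to 4.99 for Prh1, 2.03 to 4.67 for Smr3a, 2.19 to 3.54 for Prpmp5, 0.27 to 0.85 for Amy1 and 0.67 to 1.08 for Klk1. On the TPM scale the highest library held 97.8% of Pip, 69.8% of Dcpp1 and 75.7% of Dcpp2.

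List medians turned for salivary acinar genes (-0.0035 without agonist replicate 2), duct genes (-0.0962 without agonist replicate 2, -0.19 without vehicle replicate 1), acinar identity genes (0.0122 without vehicle replicate 3) and plasma cell genes (-0.037 without vehicle replicate 1, -0.0112 without vehicle replicate 3). As each fit filtered genes anew, these medians can cover different genes. For the 5 duct genes of the main fit the middle value without agonist replicate 2 was -0.0054 (Klk1b11). The pancreatic median turned to 0.95 without the filter, to 0.95 with DESeq2, and to 0.22, 0.0418, 0.14, 0.12 and 1.46 without agonist replicates 1, 2 and 3 and vehicle replicates 1 and 2. Over the left-out libraries the medians ran from -0.0035 to 0.83 (acinar), -0.19 to 0.91 (duct), -0.53 to 0.0122 (identity), -0.21 to 1.46 (pancreatic) and -0.037 to 0.23 (plasma). The cause was not tested.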
